A study of Mus musculus with 8 samples.

Results

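The genes described here are the fibroblast growth factor (FGF) ligands, their receptors and co-receptors, the docking proteins that receptors phosphorylate, and the Sprouty, Spred and phosphatase inhibitors that damp the pathway. They were chosen by gene symbol from a list of 41. The gene table held 40 of the 41 among its 30890 genes, and *Spry3* was not analysed here. Expression was measured by RNA sequencing in 8 whole embryonic kidneys of C57BL/6 mice, taken at E12.5 and cultured for 72 hours on a filter floating on medium. The 4 control kidneys received 0.1% DMSO, the solvent, and the 4 treated kidneys received 5 µM CHIR99021, a GSK-3 inhibitor that activates Wnt/β-catenin signaling. All 8 came from the same strain, age and culture, and no genetic change was introduced. By the study's methods the left kidney of an embryo served as control and the right kidney was treated, and kidneys in which Wnt/β-catenin target genes did not change were left out. A large response of such targets in these libraries is therefore not independent evidence that the treatment acted, as for *Axin2*, a Wnt feedback gene (28.1 ± 2.39 to 267 ± 15.8 CPM, SD, n = 4 per group).

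FGF ligands bind receptor tyrosine kinases on the cell surface, with heparan sulfate chains or Klotho proteins as co-receptors. Activated receptors phosphorylate docking proteins of the FRS family, and the signal runs through RAS and the kinases RAF, MEK and ERK to transcription factors such as ETV4 and ETV5. The same output switches on Sprouty and Spred proteins and DUSP phosphatases, which inhibit the cascade, so transcripts of these inhibitors are widely used as readouts of pathway activity. In the developing kidney, FGF9 and FGF20 keep nephron progenitors undifferentiated, FGF8 is needed by young nephrons, and FGF7 and FGF10 from mesenchyme act on the FGFR2 of the ureteric bud, the epithelial tube that branches to form the collecting ducts.

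The libraries held between 14599082 and 17751992 counts assigned to genes. CPM is a gene's count divided by the TMM-scaled size of its library. FPKM is the authors' value scaled to both library size and gene length, and it alone is used to compare levels between genes. Of all genes, 16723 had enough counts to be tested with edgeR's quasi-likelihood test, and adjusted p-values were corrected over all of them by the Benjamini-Hochberg method. A gene is said to have risen or fallen where its adjusted p was below 0.05, and log2FC is the log2 fold change of CHIR99021 over DMSO. Kidney markers were present in every library, but the summed CPM of the marker lists differed between the groups. It was 879 to 1095 in DMSO against 276 to 333 in CHIR99021 for nephron progenitors (8 of 8 markers fell), and 305 to 366 against 137 to 158 for ureteric epithelium (6 of 7 fell). The 6 endothelial markers summed to 395 to 554 against 154 to 214, and all 6 fell. The 7 stromal markers summed to 3695 to 4827 against 7202 to 8765, with 3 up and 3 down. Most of that sum was *Col1a1* (group means of 1793 and 4524 CPM) and *Col3a1* (1719 and 2673 CPM), while *Foxd1*, *Tcf21* and *Meis1* fell. Markers of early nephrons summed to 401 to 650 against 540 to 627, with 1 of 6 up and 4 down. The 1 that rose was *Wnt4* (group means of 59.4 and 304 CPM). *Hnf4a* (34.3 and 4.27 CPM) and *Lhx1* (79.2 and 25.1 CPM) were among the 4 that fell. Macrophage markers summed to 47.7 to 181 against 4.73 to 22.03 (6 of 6 fell), and skeletal muscle markers to 23.9 to 44.9 against 2.80 to 6.69 (2 of 3 tested fell). Transcripts of liver, an organ outside the kidney, summed to 1374 CPM in DMSO 2 and 985 CPM in DMSO 4, against 1.38 to 53.6 CPM in the other libraries. Neuronal and glial markers summed to 117 CPM in CHIR99021 2, against 15.7 to 25.5 CPM in the other treated kidneys. In these bulk samples, fewer cells of a type and less RNA per cell cannot be told apart, and the part of these cell types in the results that follow was not tested except where stated.

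The 33 FGF genes that were tested moved in both directions, with the largest differences among the ligands. After CHIR99021, 9 rose and 15 fell, together 72.7% of those tested against 48.7% of all tested genes. The 9 that rose were 27.3% of the FGF genes against 23.7% of all genes, and the 15 that fell were 45.5% against 25.0%. The median log2 fold change was -0.30 for the FGF genes and -0.0029 for all genes. A change past 2-fold was met by 6 (18.2%, against 13.8% of all genes), namely *Fgf17*, which rose (4.65% of all genes did so past 2-fold), and *Fgf1*, *Fgf7*, *Fgf10*, *Flrt1* and *Kl*, which fell (9.16%). The 4 DMSO and 4 CHIR99021 values did not overlap in 23 of the 33 genes (69.7%, against 46.1% of all genes). All 24 genes that rose or fell did so in 4 of 4 same-numbered pairs, which were taken as the left and right kidneys of an embryo. This adds little, since genes without overlap between the groups meet it under any pairing. The share of all genes that met it was not computed.

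**Figure D1:**
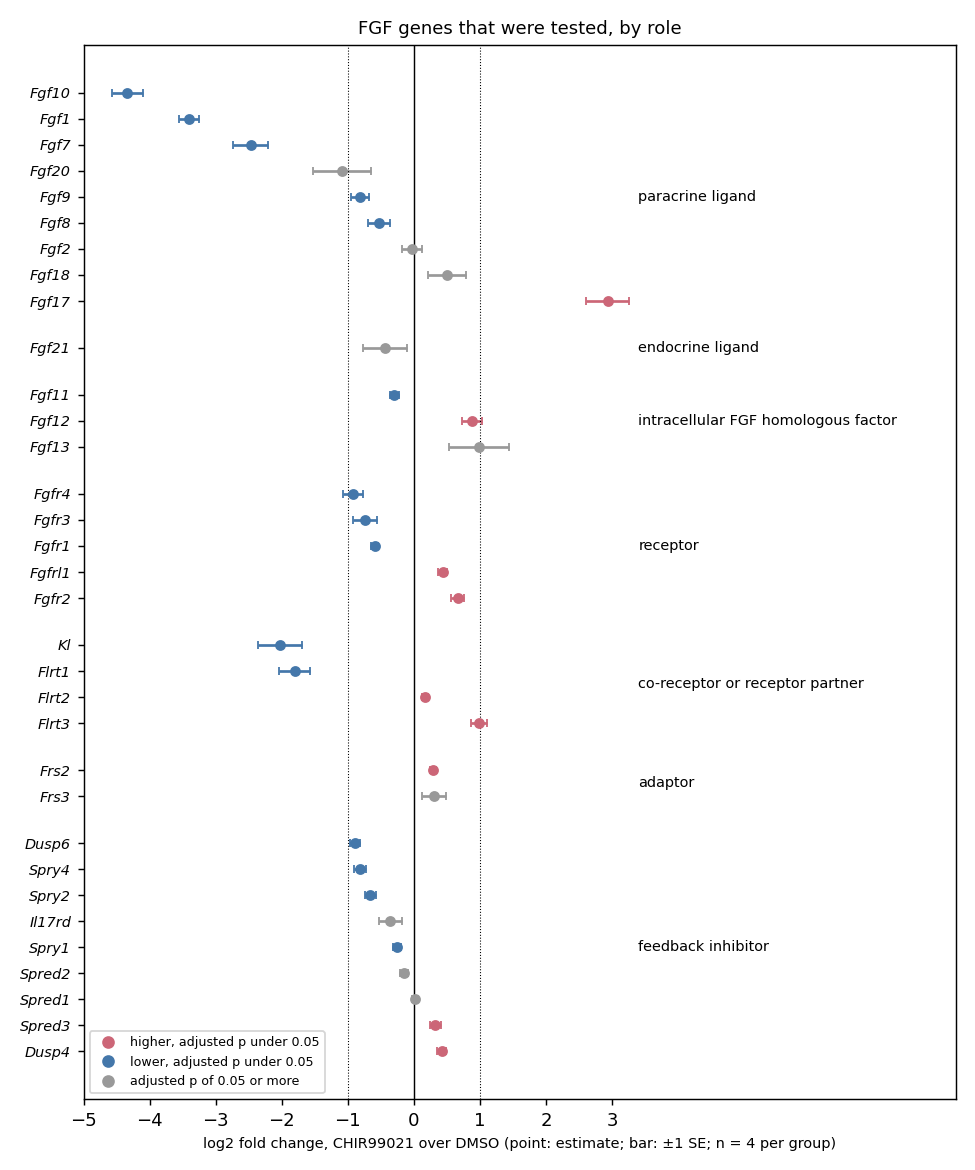
Log2 fold change (CHIR99021 over DMSO) of the 33 tested FGF genes, grouped by role, with bars of 1 standard error (n = 4 per group). Dotted lines mark a log2 change of 1 in either direction, which 5 genes pass downwards and *Fgf17* passes upwards among the genes with an adjusted p below 0.05.

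Of the 13 paracrine ligands, which act on neighbouring cells, 9 were tested. *Fgf17* rose, *Fgf1*, *Fgf7*, *Fgf8*, *Fgf9* and *Fgf10* fell, and *Fgf2*, *Fgf18* and *Fgf20* did not pass the test. The deepest fall was that of *Fgf10* (chr13:118669791-118792115, plus strand, GRCm38), which encodes a mesenchymal growth factor for branching epithelia. Its level was 23.9, 21.9, 26.4 and 21.5 CPM in the 4 DMSO kidneys and 1.19, 1.81, 1.15 and 0.46 CPM in the 4 CHIR99021 kidneys. The lowest control thus lay far above the highest treated kidney, and the log2 fold change was -4.34 (SE 0.23, adjusted p = 5.51e-08, 20.3-fold lower). *Fgf7* (chr2:126034658-126091185, plus strand) encodes keratinocyte growth factor, a close relative of FGF10 that uses the same FGFR2 isoform. It stood at 6.92, 5.37, 7.38 and 12.7 CPM in DMSO and at 1.31, 1.61, 1.44 and 1.45 CPM in CHIR99021. The groups did not overlap, DMSO 4 was the highest control, and the log2 fold change was -2.47 (SE 0.26, adjusted p = 7.81e-06, 5.54-fold lower).

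The promoters of these members are shown because CHIR99021 acts through β-catenin, which is brought to DNA by TCF/LEF factors. Of their core motif only the form CTTTGA was searched for, so other forms are neither marked nor counted. Each line gives the 250 bases before the RefSeq start site (GRCm38.p6), and capitals mark a CTTTGA on either strand. The first 3 are those of the genes with the largest changes for which the RefSeq table held a promoter. That of *Fgf3*, described further on, was added after the values were seen because it was the only FGF gene with a match.
Fgf10, chr13:118714449-118714698, plus strand: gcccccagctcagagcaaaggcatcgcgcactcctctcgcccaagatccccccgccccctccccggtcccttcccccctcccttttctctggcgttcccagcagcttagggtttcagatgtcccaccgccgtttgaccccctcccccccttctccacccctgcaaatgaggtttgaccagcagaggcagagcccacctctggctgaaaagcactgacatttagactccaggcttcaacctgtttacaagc
Fgf7, chr2:126034408-126034657, plus strand: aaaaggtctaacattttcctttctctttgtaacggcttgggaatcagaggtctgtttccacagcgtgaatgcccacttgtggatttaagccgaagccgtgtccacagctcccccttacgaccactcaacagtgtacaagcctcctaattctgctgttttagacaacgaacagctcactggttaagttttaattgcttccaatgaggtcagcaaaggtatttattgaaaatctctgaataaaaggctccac
Kl, chr5:150952357-150952606, plus strand: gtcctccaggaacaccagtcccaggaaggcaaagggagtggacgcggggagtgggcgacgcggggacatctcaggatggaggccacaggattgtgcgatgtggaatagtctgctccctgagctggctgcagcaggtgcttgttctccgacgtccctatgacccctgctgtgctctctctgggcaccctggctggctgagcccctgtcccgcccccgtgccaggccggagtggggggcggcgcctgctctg
Fgf3, chr7:144838362-144838611, plus strand: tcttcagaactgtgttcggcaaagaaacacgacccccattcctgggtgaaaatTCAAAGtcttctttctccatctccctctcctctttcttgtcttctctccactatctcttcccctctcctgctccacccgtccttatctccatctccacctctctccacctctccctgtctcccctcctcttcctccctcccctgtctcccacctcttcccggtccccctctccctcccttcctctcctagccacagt
The GC content was 61.2% for *Fgf10*, 43.6% for *Fgf7*, 66.8% for *Kl* and 55.2% for *Fgf3*. The RefSeq starts of *Fgf10* and *Fgf3* lie inside the spans of these genes in the count table. In windows of 300 bases that also held the first 50 bases of the transcript, CTTTGA occurred on either strand in 1 of 37 windows (2.70%) of 30 FGF genes and in 5257 of 32851 windows (16.0%) of all genes. The match in *Fgf3* begins 197 bases before the RefSeq start, within the gene's span, and reads TCAAAG, the motif on the minus strand. No match says only that these letters are not in the window. The table held no window for *Fgf1*, *Fgf8*, *Fgf15*, *Fgf16*, *Fgf17*, *Fgf20*, *Fgfr1*, *Spry3*, *Spry4*, *Dusp4* and *Flrt1*.

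*Fgf1* (chr18:38838673-38929404, minus strand), which encodes a ligand that binds every FGF receptor, was the most abundant secreted FGF transcript per length in the control kidneys. It was measured at 60.8, 48.4, 59.0 and 48.1 CPM in DMSO and at 3.74, 5.15, 6.89 and 4.80 CPM in CHIR99021. The ranges lay far apart, with a log2 fold change of -3.40 (SE 0.15, adjusted p = 3.36e-08, 10.6-fold lower). *Fgf2*, which encodes the other prototype ligand, was 36.5 ± 3.95 CPM in DMSO and 35.8 ± 7.99 CPM in CHIR99021 (SD, n = 4 each), with a log2 difference of -0.03 (SE 0.16, adjusted p = 0.90). The treated kidneys spread from 25.1 to 44.4 CPM around the controls' 31.3 to 40.8 CPM. The sign of this difference turned when DMSO 3 or CHIR99021 1 was left out (0.03 and 0.11). Some reads of *Fgf2* may belong to *Nudt6*, which shares 9.44% of its exon bases on the opposite strand.

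*Fgf8*, *Fgf17* and *Fgf18* form a subfamily that binds the mesenchymal receptor isoforms. *Fgf17* (chr14:70636205-70642268, minus strand) was close to the limit of detection in DMSO, at 0.216, 0.400, 0.469 and 0.458 CPM. In CHIR99021 it reached 2.75, 1.81, 3.73 and 3.62 CPM. Every treated kidney exceeded every control, and the log2 fold change was 2.93 (SE 0.33, adjusted p = 1.08e-05, 7.64-fold higher). Its DMSO counts of 4, 7, 8 and 7 were below the filter's minimum of 10. It was thus tested only because of its higher counts in the treated kidneys. *Fgf8* fell, from 9.93 ± 1.02 to 6.84 ± 1.69 CPM (SD, n = 4 each), with a log2 fold change of -0.53 (SE 0.17, adjusted p = 0.0182). CHIR99021 1 at 9.05 CPM lay above DMSO 2 at 8.68 CPM, so the groups overlapped. The *Fgf8* call was lost in 4 of 20 alternative fits, which changed the processing or left samples out. Among them were the fits without CHIR99021 3 (adjusted p = 0.0505), with limma on log2(count + 1) (0.123), and with pairs 1 and 3 alone (0.236). The call was kept with limma on log2(FPKM + 1) (0.0064) and log2(FPKM + 0.1) (0.0115). *Fgf18* was 1.42 ± 0.561 CPM in DMSO and 2.01 ± 0.417 CPM in CHIR99021, which did not pass the test (log2 difference 0.50, SE 0.29, adjusted p = 0.171). It passed in 3 of 20 alternative fits. Among them were the fit without DMSO 3, the highest control at 2.23 CPM (adjusted p = 0.0303), and limma on log2(count + 1) (0.0222). The ratio of *Fgf8* to *Fgf17* FPKM was 35.0 ± 13.3 in DMSO and 3.02 ± 0.912 in CHIR99021 (SD, n = 4 each).

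*Fgf9* and *Fgf20* encode the niche ligands of nephron progenitors. *Fgf9* was 9.95, 9.93, 12.54 and 10.8 CPM in DMSO and 5.68, 5.36, 6.82 and 6.71 CPM in CHIR99021. Its groups did not overlap, and the log2 fold change was -0.82 (SE 0.13, adjusted p = 0.000215). *Fgf20* was measured at 2.16, 1.77, 2.17 and 1.37 CPM in DMSO and 1.50, 1.14, 0.718 and 0.131 CPM in CHIR99021. It was lower in 4 of 4 pairs, but CHIR99021 1 exceeded DMSO 4 and the unpaired test did not call it (log2 difference -1.09, SE 0.44, adjusted p = 0.0614). With the embryo as a block, *Fgf20* fell (log2FC -1.16, SE 0.36, adjusted p = 0.0184), although limma on log2(count + 1) with the same block did not call it (adjusted p = 0.0776). It also passed without CHIR99021 1 (adjusted p = 0.0225) and with limma-voom (0.0382), and in all it passed in 4 of 20 alternative fits. An exon of *Micu3* on the opposite strand covers 12% of the *Fgf20* exon bases. Beside these genes, the summed level of the 8 nephron progenitor markers was lower in every treated kidney, as given above.

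**Figure D2:**
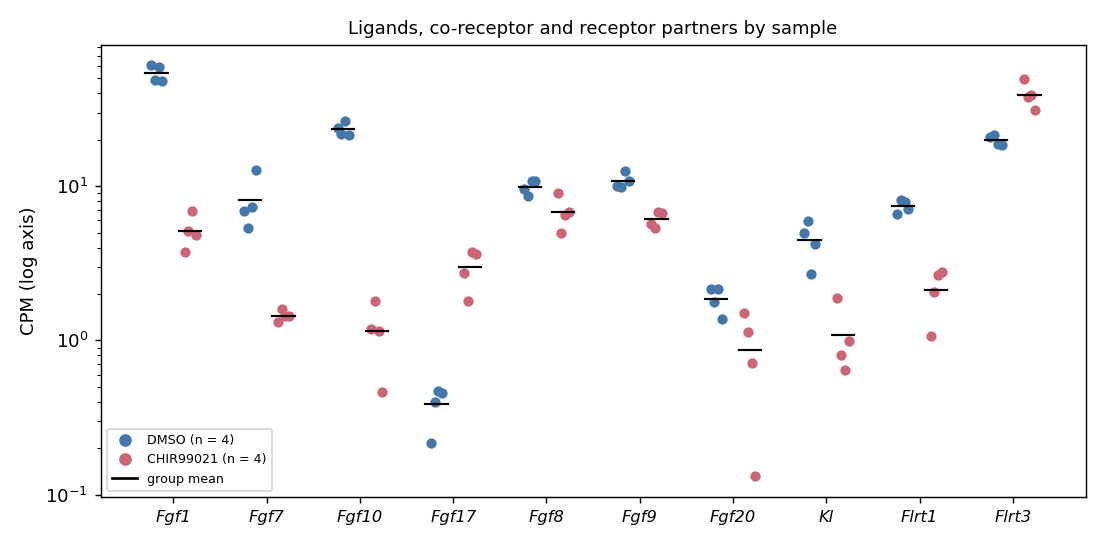
CPM of selected ligands, the co-receptor gene *Kl* and the receptor partner genes *Flrt1* and *Flrt3* in each sample, on a log axis, with a line at each group mean (n = 4 per group). *Fgf1*, *Fgf7*, *Fgf10*, *Fgf9*, *Kl* and *Flrt1* are lower in all treated kidneys than in any control, *Fgf17* and *Flrt3* are higher in all of them, and *Fgf8* and *Fgf20* overlap.

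The remaining 4 paracrine ligands were removed by the filter on low counts. *Fgf3*, which encodes a ligand of inner ear and tail development, had 3, 2, 1 and 1 counts in DMSO and 13, 9, 10 and 3 counts in CHIR99021. Fitted without the filter, its log2 fold change was 2.44 (SE 0.63, adjusted p = 0.00164), at a depth of at most 13 counts per library. *Fgf5*, which encodes a regulator of hair growth, had 0, 1, 1 and 4 counts against 2, 11, 4 and 3 (adjusted p = 0.0743 without the filter). *Fgf16* had 0 to 3 counts in DMSO and 0 to 4 in CHIR99021, and *Fgf22* had 1 to 8 and 1 to 2. No difference in these last genes was detectable at this depth.

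Adding the FPKM of the 15 secreted ligands gave 41.4 ± 3.25 in DMSO and 18.8 ± 1.16 in CHIR99021 (SD, n = 4 each). The lowest control sum was 37.3 and the highest treated sum was 20.2, so the ranges lay apart. *Fgf1* made up 29.5 ± 3.32% of the sum in DMSO and 5.59 ± 1.26% in CHIR99021, and *Fgf10* went from 12.9 ± 0.922% to 1.27 ± 0.648%. *Fgf2* went from 13.6 ± 1.28% to 26.8 ± 5.78% at a nearly equal level of its own, and *Fgf17* from 0.577 ± 0.166% to 8.88 ± 2.52%. In order of mean FPKM, the control kidneys had *Fgf1* (12.2), *Fgf8* (7.69), *Fgf2* (5.63), *Fgf10* (5.32) and *Fgf7* (2.61) first. The ranges of *Fgf2* and *Fgf10* overlapped, and that of *Fgf7* overlapped the next genes *Fgf9* (2.43) and *Fgf21* (2.39). In CHIR99021 the order was *Fgf2* (5.03), *Fgf8* (4.83), *Fgf17* (1.68), *Fgf18* (1.61) and *Fgf21* (1.60), where the first pair overlapped and so did the other three. On the authors' FPKM scale the median gene was itself lower in CHIR99021 than on the TMM scale, by 0.12 in log2 with a pseudocount of 1, a shift far smaller than the difference between the sums.

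**Figure D3:**
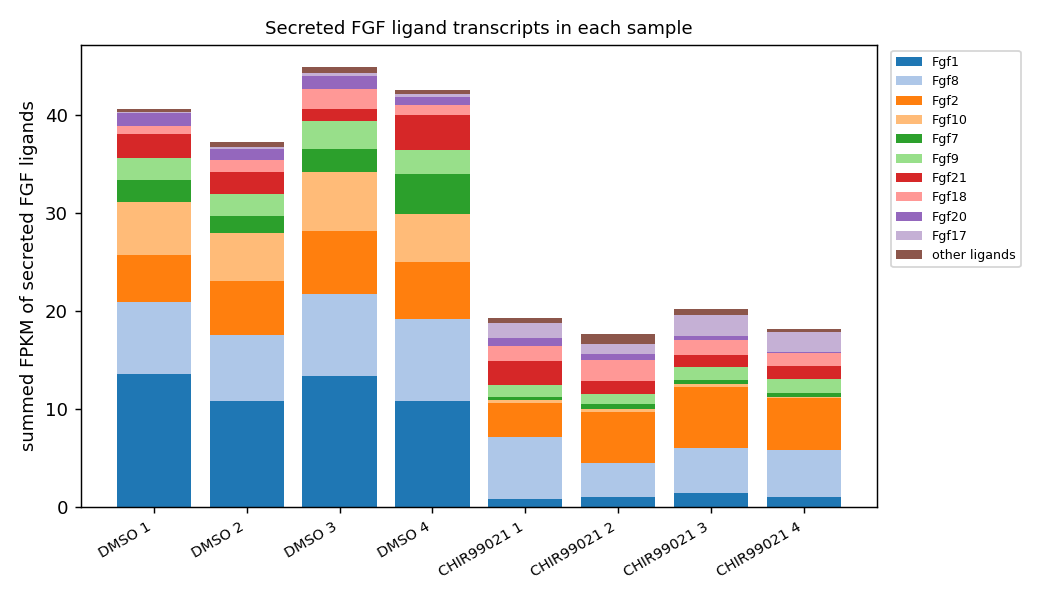
Summed FPKM of the 15 secreted FGF ligand genes in each of the 8 samples, stacked by gene from 0, with the least abundant genes pooled as other ligands. The control bars reach 37.3 to 45.0 and the treated bars 17.6 to 20.2, and the segments of *Fgf1*, *Fgf10*, *Fgf8* and *Fgf7* are all smaller on average in CHIR99021.

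The endocrine FGFs circulate and need a Klotho co-receptor. *Fgf21*, a hormone of the liver, was 2.22, 2.11, 1.11 and 3.27 CPM in DMSO and 2.43, 1.34, 1.22 and 1.38 CPM in CHIR99021. The groups overlapped (log2 difference -0.44, SE 0.33, adjusted p = 0.301), and the highest value was in DMSO 4, a library with liver transcripts. DMSO 2, the library with the most liver transcripts, was not above DMSO 1. In pairs 1 and 3 alone, which hold neither of the liver-rich libraries, the difference was 0.14, and the part of liver RNA in these values was not tested. *Fgf15*, the ileal hormone that is also made in the embryo, was filtered out with 6, 9, 14 and 10 counts against 4, 20, 1 and 3. Its 20 counts were in CHIR99021 2, the library with the most neuronal transcripts, and 24.9% of its exon bases lie opposite *Gm26793*. *Kl* (chr5:150952607-150993817, plus strand) encodes Klotho, the FGF23 co-receptor of kidney tubules. It was 4.98, 5.94, 2.69 and 4.19 CPM in DMSO and 1.87, 0.803, 0.646 and 0.986 CPM in CHIR99021. It fell without overlap (log2FC -2.03, SE 0.33, adjusted p = 0.000313, 4.07-fold lower). *Klb*, the β-Klotho gene used by FGF15 and FGF21, was filtered out with 9, 9, 37 and 9 counts in DMSO and 3, 5, 2 and 3 in CHIR99021. Without the filter its log2 fold change was -2.06 (SE 0.53, adjusted p = 0.00195). Without DMSO 3, a comparison chosen after seeing the data, it was -1.24 (SE 0.60, adjusted p = 0.125). The 37 counts came from DMSO 3, in which the fat cell gene *Plin1* was also highest (19.0 CPM, against 2.76 to 5.04 in the other controls and 0 to 0.0718 in CHIR99021). *Plin1* was looked at after the values of *Klb* were seen.

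The intracellular FGF homologous factors are not secreted and bind voltage-gated sodium channels. *Fgf11* was the most abundant of them per length and fell from 83.8 ± 5.38 to 68.3 ± 5.51 CPM (log2FC -0.30, SE 0.067, adjusted p = 0.00269). *Fgf12* rose from 5.09 ± 0.883 to 9.35 ± 0.945 CPM (log2FC 0.88, SE 0.15, adjusted p = 0.000311), and its highest control, 6.22 CPM, lay under its lowest treated kidney, 8.55 CPM. *Fgf13* was 1.05 to 1.46 CPM in DMSO and 1.81, 5.29, 1.44 and 1.18 CPM in CHIR99021, so its mean difference rested on CHIR99021 2 (log2 difference 0.98, SE 0.45, adjusted p = 0.0969). Without CHIR99021 2 the difference was 0.28 (adjusted p = 0.448), and without CHIR99021 4 it was 1.22 (adjusted p = 0.0370). CHIR99021 2 also held the most neuronal and glial transcripts, and the *Fgf13* value in the other treated kidneys was at most 1.81 CPM. *Fgf14* was filtered out with 0 to 8 counts against 4 to 6.

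All 5 receptor genes passed the test (against 48.7% of all tested genes), each without overlap between the groups (against 46.1%). *Fgfr1*, the main receptor of mesenchyme, was 484, 445, 461 and 435 CPM in DMSO and 322, 313, 292 and 282 CPM in CHIR99021. It fell by 0.59 on the log2 scale (SE 0.055, adjusted p = 2.03e-06). *Fgfr2*, whose splice forms serve epithelium and mesenchyme, was 136, 129, 124 and 134 CPM in DMSO and 222, 243, 184 and 178 CPM in CHIR99021. It rose by 0.66 on the log2 scale (SE 0.093, adjusted p = 0.000197). Gene counts cannot tell the epithelial from the mesenchymal isoform of *Fgfr2*, and *Ctbp2* shares 3.04% of its exon bases. The rise of *Fgfr2* stood beside a fall of the ureteric epithelial markers, as given above.

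*Fgfr3* was 25.4, 24.2, 15.4 and 22.1 CPM in DMSO and 14.9, 14.8, 9.19 and 13.1 CPM in CHIR99021, with pair 3 lowest in both groups. It fell by 0.74 on the log2 scale (SE 0.18, adjusted p = 0.00672), although not in pairs 1 and 3 alone (0.127). An RNA on the opposite strand, *G630022F23Rik*, covers 13.9% of its exon bases. *Fgfr4*, a receptor typical of liver and muscle, was 19.1, 20.8, 16.3 and 17.9 CPM in DMSO and 12.7, 10.4, 8.76 and 7.17 CPM in CHIR99021 and fell by 0.92 on the log2 scale (SE 0.15, adjusted p = 0.000355). The summed skeletal muscle markers were also lower in every treated kidney. Liver markers summed to 1374 CPM in DMSO 2 and 985 CPM in DMSO 4, and to at most 8.05 CPM in the treated kidneys. *Fgfr4* was highest in DMSO 2, but lower in DMSO 4 than in DMSO 1. The part of muscle and liver RNA in this result was not tested. *Fgfrl1*, which encodes a receptor without a kinase domain that is required for nephron formation, rose from 52.0 ± 3.39 to 70.2 ± 5.87 CPM (log2FC 0.43, SE 0.07, adjusted p = 0.000222).

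*Fgfr1* and *Fgfr2* moved in opposite directions, and the mix of receptor transcripts differed between the groups. The summed FPKM of the 4 kinase receptors was 70.2 ± 2.66 in DMSO and 52.6 ± 5.01 in CHIR99021 (SD, n = 4 each). The share of *Fgfr1* in it was 68.8 ± 1.83% and 55.6 ± 2.47%, and that of *Fgfr2* was 18.9 ± 0.728% and 36.1 ± 2.00%. *Fgfr4* held 7.80 ± 0.735% and 4.95 ± 0.80%, and *Fgfr3* 4.52 ± 0.83% and 3.27 ± 0.518%. The ratio of *Fgfr1* to *Fgfr2* FPKM was 3.72, 3.59, 3.90 and 3.39 in the control kidneys and 1.52, 1.35, 1.66 and 1.65 in the treated kidneys. These ratios do not depend on the scaling of a library, and their ranges lay far apart. The order of the 4 receptors by mean FPKM was the same in both groups, *Fgfr1*, *Fgfr2*, *Fgfr4* and *Fgfr3*.

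**Figure D4:**
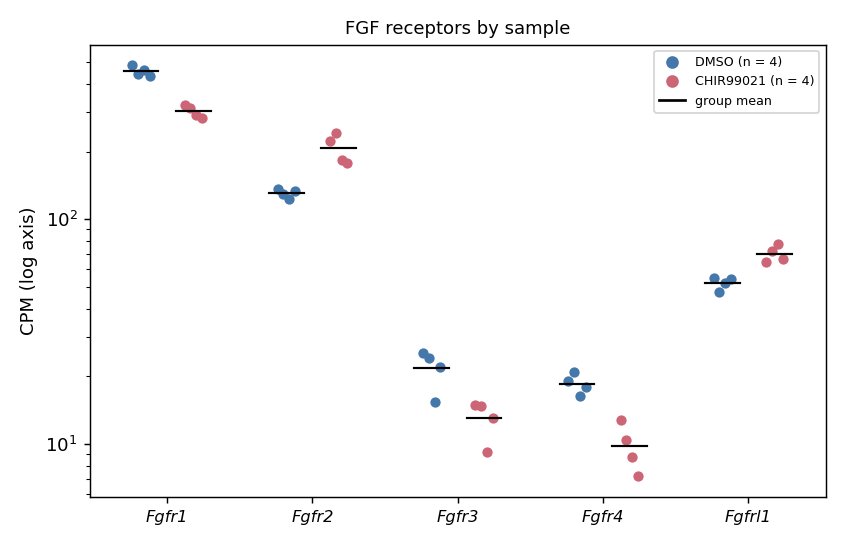
CPM of the 5 FGF receptor genes in each sample, on a log axis, with a line at each group mean (n = 4 per group). *Fgfr1*, *Fgfr3* and *Fgfr4* are lower and *Fgfr2* and *Fgfrl1* higher in every CHIR99021 kidney than in any DMSO kidney.

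The 3 FLRT genes encode membrane proteins that bind FGF receptors and strengthen their signal. *Flrt1* (chr19:7092014-7105729, minus strand) was 6.60, 8.16, 7.91 and 7.13 CPM in DMSO and 1.06, 2.08, 2.66 and 2.76 CPM in CHIR99021. It fell without overlap (log2FC -1.80, SE 0.24, adjusted p = 4.1e-05, 3.49-fold lower). *Flrt3* went the other way, from 20.7, 21.3, 18.6 and 18.5 CPM to 49.2, 37.6, 38.8 and 31.4 CPM. It rose by 0.99 on the log2 scale (SE 0.12, adjusted p = 4.2e-05), just inside the 2-fold line. *Flrt2* was the most abundant of the 3 per length and rose slightly, from 115 ± 3.04 to 130 ± 5.67 CPM (log2FC 0.17, SE 0.046, adjusted p = 0.00764). That small rise was lost in 5 of 20 alternative fits, with adjusted p up to 0.567. Among them were limma on log2(count + 1) (adjusted p = 0.115) and on log2(FPKM + 1) (0.557). Of the docking protein genes, *Frs2* rose from 118 ± 3.36 to 145 ± 6.03 CPM (log2FC 0.29, SE 0.046, adjusted p = 0.000167). *Frs3* was 5.18 ± 0.892 and 6.39 ± 1.31 CPM (log2 difference 0.30, SE 0.19, adjusted p = 0.197), with 16.3% of its exon bases opposite *Frs3os*. Limma on log2(count + 1) called *Frs3* higher, without the block (adjusted p = 0.0423) and with it (0.00228).

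Of the 10 feedback inhibitor genes, 9 were tested, 4 fell and 2 rose (66.7% of those tested, against 48.7% of all genes). *Dusp6* encodes a phosphatase specific for ERK and is among the closest transcriptional readouts of FGF signaling. It was 135, 140, 123 and 128 CPM in DMSO and 79.3, 75.8, 67.2 and 60.9 CPM in CHIR99021. It fell by 0.89 on the log2 scale (SE 0.078, adjusted p = 1.78e-06). The Sprouty genes, whose products block RAS and RAF activation, all fell among the 3 that were tested. *Spry4* fell from 59.8 ± 5.61 to 34.1 ± 3.89 CPM (log2FC -0.81, SE 0.091, adjusted p = 1.14e-05) and *Spry2* from 36.8 ± 3.24 to 23.3 ± 2.04 CPM (-0.66, SE 0.085, adjusted p = 3.3e-05). *Spry1*, which restrains GDNF and RET signaling in the ureteric bud, fell less, from 129 ± 10.2 to 108 ± 8.33 CPM (-0.26, SE 0.068, adjusted p = 0.00702). Pairs 1 and 3 alone did not call *Spry1* (adjusted p = 0.159), and 24.4% of its exon bases lie opposite *Gm42922*.

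In the unpaired test the other inhibitors did not fall with them. *Dusp4*, a nuclear MAP kinase phosphatase gene, rose from 58.5 ± 1.85 to 78.2 ± 6.74 CPM (log2FC 0.42, SE 0.064, adjusted p = 0.000137). *Spred3* rose from 44.1 ± 2.06 to 55.2 ± 6.36 CPM (0.32, SE 0.079, adjusted p = 0.00437). *Spred3* lost this call in 3 of 20 alternative fits, with adjusted p up to 0.138, among them log2(FPKM + 1) (0.119) and pairs 1 and 3 alone (0.0635). Its relative *Spred1* was 183 ± 11.0 and 185 ± 4.90 CPM (log2 difference 0.01, SE 0.049, adjusted p = 0.834), with a sign that turned to -0.032 under upper-quartile scaling and to -0.11 on log2(FPKM + 1). *Spred2* was 107 ± 10.7 and 97.1 ± 2.43 CPM (log2 difference -0.15, SE 0.065, adjusted p = 0.0803). It passed in 4 of 20 alternative fits, among them upper-quartile scaling (0.0244), log2(FPKM + 1) (0.0101) and the fit without DMSO 3 (0.0243). *Il17rd*, which encodes the Sef protein that holds active ERK out of the nucleus, was 113 ± 21.2 and 88.4 ± 16.2 CPM (log2 difference -0.36, SE 0.17, adjusted p = 0.125). It was called lower in 3 of 20 alternative fits, with the lowest adjusted p from DESeq2 (0.0282).

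Among 13 further genes known as transcriptional outputs of ERK, 5 rose and 4 fell in the unpaired test (69.2% against 48.7% of all genes). The 3 ETV transcription factor genes fell together. *Etv5*, which acts with *Etv4* in branching of the ureteric bud, was 142, 119, 116 and 117 CPM in DMSO and 56.0, 43.4, 68.0 and 59.4 CPM in CHIR99021. It fell by 1.12 on the log2 scale (SE 0.13, adjusted p = 7.5e-05). *Etv4* fell from 73.9 ± 7.28 to 44.5 ± 7.56 CPM (log2FC -0.73, SE 0.12, adjusted p = 0.000537). *Etv1*, chosen after its value was seen to complete the family, fell from 53.8 ± 6.91 to 34.1 ± 4.94 CPM (-0.66, SE 0.11, adjusted p = 0.000638). *Etv4* and *Etv5* are also driven by RET in the ureteric bud, whose markers were lower in the treated kidneys.

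The phosphatase genes outside the member list split. *Dusp5*, a nuclear ERK phosphatase gene, fell from 19.1 ± 4.10 to 8.90 ± 1.69 CPM (log2FC -1.10, SE 0.17, adjusted p = 0.000248), with 22.1% of its exon bases opposite *AC137853.2*. *Dusp2* rose from 4.40 ± 0.891 to 15.7 ± 1.45 CPM (1.82, SE 0.15, adjusted p = 6.03e-07). *Ier3*, an immediate early gene, rose from 38.8 ± 5.76 to 114 ± 10.7 CPM (1.56, SE 0.10, adjusted p = 7.24e-07). *Egr1*, the immediate early transcription factor gene most often used as an ERK readout, was 149 ± 57.4 and 81.3 ± 33.7 CPM and did not pass the unpaired test (adjusted p = 0.103). With the embryo as a block it fell by 0.88 on the log2 scale (SE 0.07, adjusted p = 1.9e-06). The other outputs that rose, named after their values were seen, were *Fosl1* (log2FC 0.66), *Phlda1* (0.57) and *Dusp9* (0.39). *Ier2* passed only with the block, at a log2FC of 0.20 (adjusted p = 0.0127). The inhibitor and output transcripts thus did not move one way. In the unpaired test *Dusp6*, *Spry1*, *Spry2*, *Spry4*, *Etv1*, *Etv4*, *Etv5* and *Dusp5* fell. *Dusp2*, *Dusp4*, *Dusp9*, *Fosl1*, *Phlda1*, *Ier3* and *Spred3* rose in it, the last with the losses of its call given above. With the embryo as a block, *Egr1* also fell and *Ier2* also rose.

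**Figure D5:**
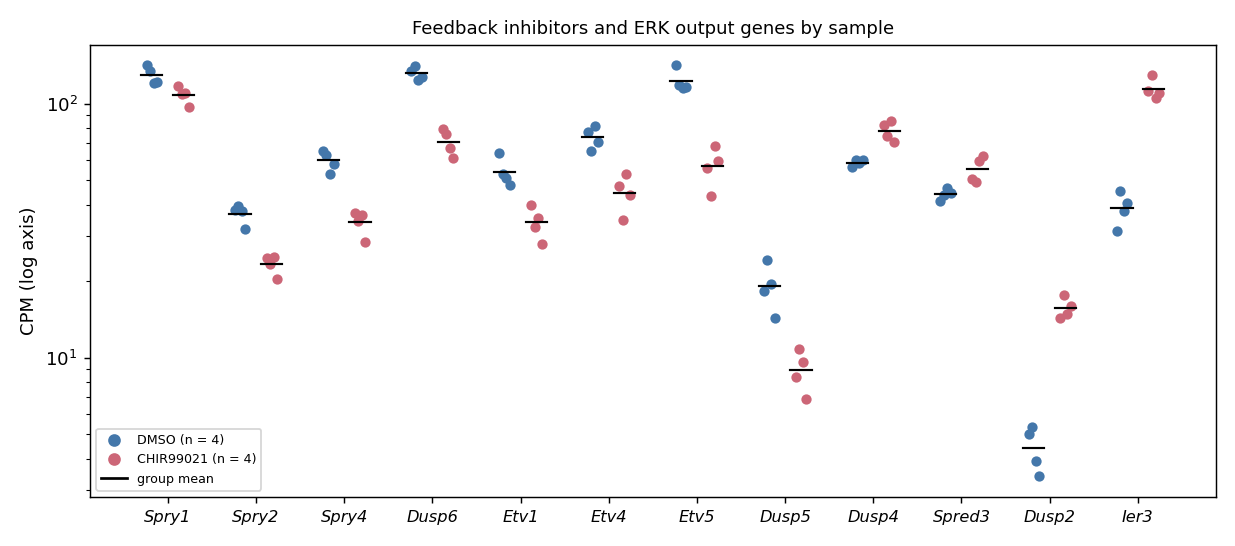
CPM of 12 feedback inhibitor and ERK output genes in each sample, on a log axis, with a line at each group mean (n = 4 per group). The 8 genes on the left are lower in every CHIR99021 kidney than in any DMSO kidney, and the 4 on the right are higher.

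The cascade between receptor and ERK moved little. Of 24 genes for its adaptors, RAS proteins and kinases, 5 rose and 4 fell (37.5% against 48.7% of all genes), and none passed 2-fold. *Ptpn11*, which encodes the phosphatase SHP2 that relays receptor signals, rose from 156 ± 3.23 to 207 ± 10.02 CPM (log2FC 0.41, SE 0.045, adjusted p = 9.98e-06). *Plcg1* (0.42), *Shc1* (0.42) and *Nras* (0.30) also rose, and *Sos2*, a RAS exchange factor gene, fell by 0.50 on the log2 scale (SE 0.06, adjusted p = 2e-05).

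Heparan sulfate is the sugar chain that holds FGF ligands on their receptors. The products of 19 tested genes build or edit it or, for *Hspg2*, carry it. Of these genes 7 rose and 5 fell (63.2% against 48.7% of all genes). *Hs3st3b1*, a sulfotransferase gene, fell from 72.5 ± 10.04 to 12.52 ± 2.56 CPM (log2FC -2.53, SE 0.15, adjusted p = 5.68e-07). *Sulf2*, which encodes a secreted enzyme that removes 6-O-sulfates from the chain, fell from 265 ± 22.7 to 103 ± 14.2 CPM (-1.36, SE 0.10, adjusted p = 2.78e-06). The enzyme genes *Glce*, *Extl2* and *Ndst2* rose by 0.72, 0.57 and 0.53 on the log2 scale (adjusted p = 1.23e-05, 0.000118 and 5.18e-06). Others of the same pathway did not, since the 6-O-sulfotransferase genes *Hs6st1* (-0.29) and *Hs6st2* (-0.42) fell, and *Ext1*, *Ndst1* and *Hs2st1* did not pass the test (log2 differences of 0.11, 0.0077 and -0.02). Past 2-fold there were also *Hs3st1*, which rose (1.05), and *Hs3st3a1*, which fell (-1.05), and like the genes of the preceding sentence these were named after their values were seen. *Ndst4* was not analysed here.

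Of 6 genes for other FGF binding proteins and receptor partners, 2 rose and 2 fell (66.7% against 48.7% of all genes). *Fgfbp1*, whose product frees FGFs from heparan sulfate, fell from 13.0 ± 2.11 to 2.98 ± 0.853 CPM (log2FC -2.13, SE 0.21, adjusted p = 3.48e-06). *Cnpy1*, a gene of the Canopy family that is linked to FGF receptor maturation in zebrafish, had 0 counts in all 4 DMSO libraries and 210, 145, 180 and 146 counts in CHIR99021 (adjusted p = 4.18e-08). Like *Fgf17*, it passed the count filter, and so was tested, only because of its counts in the treated kidneys. Against a floor of 3 counts over the 4 control libraries it was at least 258-fold higher, an estimate that covers counting error only. *Ncam1*, an adhesion molecule gene whose product binds FGFR1, fell by 0.46 on the log2 scale (SE 0.071, adjusted p = 0.000159). *Cdh2*, the N-cadherin gene, rose by 0.31 (SE 0.093, adjusted p = 0.0176) with overlapping groups. It did not pass in 6 of 20 alternative fits, with adjusted p up to 0.192. Among them were the fit without DMSO 4 (0.0556) and limma on log2(FPKM + 1) (0.148). *L1cam*, a neural adhesion molecule gene, passed only with the embryo as a block (log2FC -0.36, SE 0.12, adjusted p = 0.0367).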

How the data were processed

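Whole E12.5 kidneys treated for 72 hours with DMSO (n = 4) or CHIR99021 (n = 4) were profiled by RNA-seq. The authors aligned reads to GRCm38 with HISAT2 (2.0.5, per the labels) and used featureCounts for gene counts. The deposited table holds raw counts and the authors' FPKM. Strand setting and annotation release are not given in the sources used here. Where GEO's labels and the study's methods differ on the RNA and library kits, neither was assumed. The table's fold changes and p-values are the authors' own comparison and were not used.

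Counts were tested in R 4.3.3 with edgeR 4.0.16 (glmQLFit robust, glmQLFTest, TMM scaling, filterByExpr at min.count 10 and min.total.count 15), with Benjamini-Hochberg adjustment over 16723 genes and a threshold of 0.05. The study used limma on log2 values without naming a pseudocount, so limma 3.58.1 on quantile-normalized log2(count + 1) was an alternative, as were limma-voom, DESeq2 1.42.0, other scalings and filters, limma on log2(FPKM + 1) and log2(FPKM + 0.1), a replicate block, each sample left out and pairs 1 and 3 alone. Steps were tested on simulated data. Members with an adjusted p below 0.05 and a log2 change past 1 are given sample by sample, and up to 5 genes with the smallest p are named per further list. Members and lists were chosen with earlier results of these data known.

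Replicate numbers were taken as pairs, since the study put the left and right kidney of an embryo in opposite groups. Deviations from the group mean correlated across genes at 0.111 to 0.346 for same-numbered samples and at -0.180 to 0.0766 for others. Blocked values are given where they change a call. Exon overlaps and promoters came from the reference annotation and the RefSeq table of GRCm38.p6. Totals of 14599082 to 17751992 counts make 1 count about 0.0541 to 0.0717 CPM. The result for 1 gene of the further lists is not reported here.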

Additional observations from a re-analysis of the deposited data

Results flagged for a closer look

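Among 80 groups of 4 samples that were examined (the 40 genes in each group), 5 held a sample set apart from the other 3 by Dixon's criterion, and chance alone gives about 1 in 20. *Fgf13* was 5.29 CPM in CHIR99021 2 against 1.18 to 1.81 CPM in the other treated kidneys, and *Fgf15* was 1.34 CPM in the same kidney against 0.0718 to 0.250 CPM. That library also had the highest neuronal and glial marker sum (117 CPM), and the part of those cells was not tested. *Klb* was 2.17 CPM in DMSO 3 against 0.487 to 0.589 CPM in the other controls, in the library with the highest *Plin1* (19.0 CPM), and this too was not tested. *Fgf21* was 2.43 CPM in CHIR99021 1 against 1.22 to 1.38 CPM. *Fgf14* was 0.431 CPM in CHIR99021 3 against 0.250 to 0.268 CPM, a difference of a few counts.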

How the results depend on the processing

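Of the 33 FGF genes tested, 19 of the 24 that rose or fell did so under all 12 alternatives and all 8 fits with a sample left out. *Fgf8*, *Fgfr3*, *Spry1*, *Spred3* and *Flrt2* lost their call in at least 1 of them. The number of FGF genes called was 24, and 23 to 26 with a sample left out, 20 in pairs 1 and 3 alone, 24 or 25 under the other tests and scalings, and 26 without the expression filter, where *Fgf3* and *Klb* were added, *Klb* not without DMSO 3. With the replicate block it was 25, *Fgf20* being added and none lost, and among the other pathway genes the block added *Egr1*, *Ier2* and *L1cam* to the 34 called, so that pairing changed no other call. The number of other pathway genes that fell was 15, but 28 with limma on log2(FPKM + 1) and 24 on log2(FPKM + 0.1). On those scales the median of all genes shifted by -0.12 and -0.13 in log2 relative to the TMM scale, and 2520 genes rose and 6032 fell, or 2437 and 5899, against 3958 and 4180. The signs of 3 differences that had not passed the test turned. That of *Fgf2* (-0.03) became 0.03 without DMSO 3 and 0.11 without CHIR99021 1 (range -0.14 to 0.11 with a sample left out), and that of *Fgf21* (-0.44) became 0.14 in pairs 1 and 3 alone. That of *Spred1* (0.01) became -0.032 with upper-quartile scaling, -0.092 on log2(count + 1) with or without the block, -0.11 on log2(FPKM + 1), -0.12 on log2(FPKM + 0.1), -0.0084 and -0.014 without DMSO 2 or DMSO 3 (range -0.014 to 0.053 with a sample left out), and -0.0017 in pairs 1 and 3 alone. Where no value is given for it, the cause was not tested. Genes below 20 counts per library, such as *Fgf3*, *Fgf5*, *Fgf16* and *Fgf22*, are limited by depth.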
